A study of Mus with 3 samples.

Results

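The 10 genes Cyp2f2, Cyp2a5, Cyp2b10, Cyp4b1, Cyp2s1, Fmo2, Aldh1a1, Aldh3a1, Cbr2 and Aox3 encode enzymes that oxidise or reduce foreign chemicals in the mouse airway. They were taken by gene symbol, and all 10 were found among the 27998 genes of the count matrices. The whole lungs of female mice aged 6 to 12 weeks were read cell by cell, in 3 libraries of 1 per group: ovalbumin-challenged knockouts of DJ-1, a redox-sensing protein and the product of Park7 (DJ-1 KO OVA), wild-type mice given the same allergen (WT OVA), and wild-type mice given PBS (WT PBS). Each library pooled the lung cells of 3 mice, so the spread between mice was not measured, and differences between groups carry no test. The WT PBS library was grouped by its treatment label and by the name it carries, which both give PBS, although its title speaks of ovalbumin.

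Club cells are the non-ciliated secretory cells of the conducting airways, and they secrete the club cell protein Scgb1a1. Their smooth endoplasmic reticulum carries cytochrome P450 enzymes, which take electrons from the reductase Por to insert oxygen into inhaled chemicals. Flavin monooxygenases, aldehyde dehydrogenases, carbonyl reductases and aldehyde oxidases act on the same chemicals or on their products. In the mouse, the Cyp2f2 enzyme turns naphthalene into a toxic epoxide, and club cells are the lung cells best known to be lost after naphthalene. In allergic airways, club cells can take on a mucous programme marked by genes such as Muc5ac and Clca1.

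The libraries held 4666 barcodes with 17339386 UMIs (unique molecules) in DJ-1 KO OVA, 6406 with 24438516 in WT OVA, and 4556 with 26548669 in WT PBS. Of these barcodes, 372 occurred in both DJ-1 KO OVA and WT PBS, and the cell with fewer UMIs of each such pair was left out, which removed 66 cells of DJ-1 KO OVA and 306 of WT PBS. After filtering, 4438, 5930 and 3850 cells were kept in DJ-1 KO OVA, WT OVA and WT PBS, with median UMIs of 1653, 2060.5 and 4084. Park7 stood at 20.8 CPM (counts per 1000000 UMIs of the library or class named) over all kept cells of DJ-1 KO OVA, against 100.3 CPM in WT OVA and 135.7 CPM in WT PBS. These reads are 3′ tags, which a deletion elsewhere in the gene need not remove. A cluster with Rag1 and Dntt among its leading genes, named thymocyte-type-like, took 785 kept cells in DJ-1 KO OVA, against 9 in WT OVA and 29 in WT PBS, and counts in the denominator of every share of kept cells.

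Club-like and mucous secretory cells were pooled as 1 class, airway secretory-like cells, and were found by clustering without the 10 genes, without other genes of chemical metabolism and without 21 mucous genes, so that none of these set the border of the class. Scgb1a1 took 27.9% of the class's UMIs in DJ-1 KO OVA, 40.9% in WT OVA and 41.5% in WT PBS. The class held 111 cells in DJ-1 KO OVA (2.50% of kept cells, 95% interval 2.06 to 3.004), 118 in WT OVA (1.99%, 1.65 to 2.38) and 52 in WT PBS (1.35%, 1.01 to 1.77). All intervals here are 95% and cover counting error only, not the spread between mice. The share was 1.26 times as high in DJ-1 KO OVA as in WT OVA (0.961 to 1.64), and 1.47 times as high in WT OVA as in WT PBS (1.05 to 2.08). Which library held the largest share changed with the treatment of shared barcodes and when club-like clusters were counted alone. Those club-like clusters came from a separate clustering that left no genes out, so the 10 genes and mucous genes could help set their border. The order of WT OVA and WT PBS also changed with the cells that the class was counted against.

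Of the airway secretory-like cells, 73 of the 111 in DJ-1 KO OVA and 31 of the 52 in WT PBS carried a barcode found in the other of these libraries, and none of the 118 in WT OVA did. With both cells of each shared barcode left out, the share was 0.919% in DJ-1 KO OVA, 2.01% in WT OVA and 0.554% in WT PBS. The 38 remaining cells of DJ-1 KO OVA held 190100 of the class's 2620156 UMIs, and the 21 of WT PBS held 174261 of 1812640. The share therefore stood highest in DJ-1 KO OVA with the larger cell of each pair kept and highest in WT OVA with both left out. With all cells kept, the class held 141 cells in DJ-1 KO OVA, 119 in WT OVA and 132 in WT PBS, and the share in WT OVA was then below that in WT PBS (log2 ratio -0.66). Among epithelial cells (airway secretory-like, ciliated-like and alveolar type 1-like and 2-like), airway secretory-like cells made up 26.0% in DJ-1 KO OVA (21.9 to 30.4), 13.02% in WT OVA (10.9 to 15.4) and 14.1% in WT PBS (10.7 to 18.1). The intervals of WT OVA and WT PBS overlapped there, and that of DJ-1 KO OVA lay above both.

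**Figure D1:**
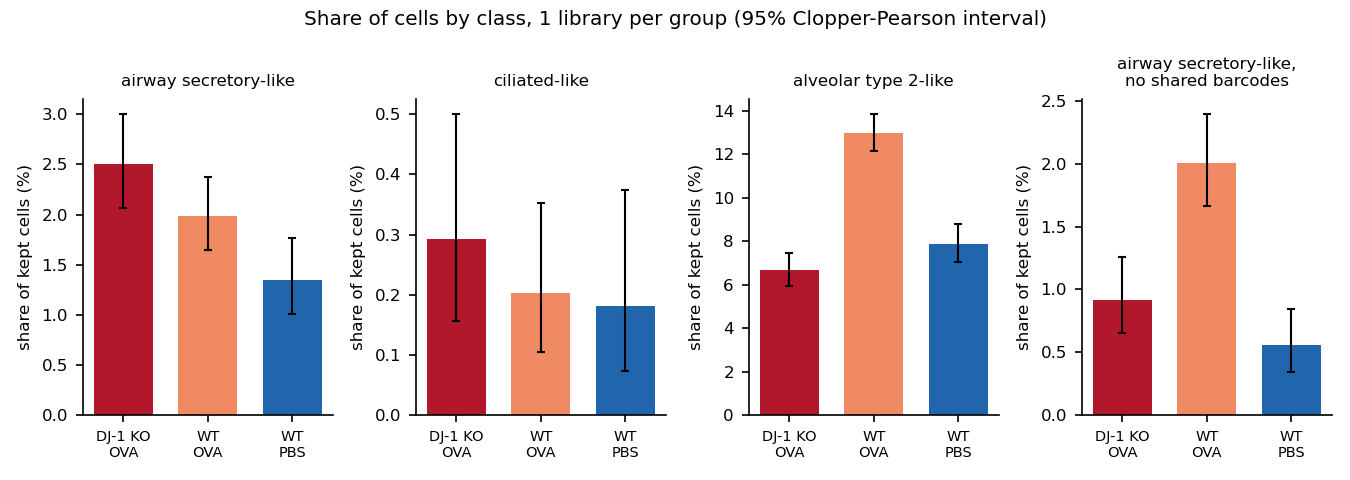
Share of kept cells (%, vertical axes from 0, a scale of its own in each panel) in airway secretory-like, ciliated-like and alveolar type 2-like cells, and in airway secretory-like cells once both cells of each barcode shared by DJ-1 KO OVA and WT PBS were left out. Bars are single libraries with 95% Clopper-Pearson intervals; the highest airway secretory-like share is 2.50% in DJ-1 KO OVA in the first panel and 2.01% in WT OVA in the last.

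The other epithelial classes gave a different order. Alveolar type 2-like cells, the surfactant-making cells of the alveoli, made up 6.67% of kept cells in DJ-1 KO OVA, 12.97% in WT OVA and 7.87% in WT PBS. Their share in DJ-1 KO OVA was 0.514 times that in WT OVA (0.448 to 0.589), and in WT OVA 1.65 times that in WT PBS (1.44 to 1.89). Ciliated-like cells numbered only 13, 12 and 7 in DJ-1 KO OVA, WT OVA and WT PBS, and their share ratios had intervals from 0.609 to 3.47 and from 0.404 to 3.34. Mesothelial-like cells had a share in WT OVA 2.13 times that in WT PBS (1.42 to 3.27), and in DJ-1 KO OVA 0.878 times that in WT OVA (0.638 to 1.201). Fibroblast-like cells had 0.844 times the share in DJ-1 KO OVA that they had in WT OVA (0.723 to 0.984), and 0.831 times the share in WT OVA that they had in WT PBS (0.719 to 0.961).

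Which cells held the transcripts differed from gene to gene. Airway secretory-like cells held 88.1% of the kept Cyp2f2 UMIs in DJ-1 KO OVA, 92.1% in WT OVA and 95.7% in WT PBS. They held 95.2%, 93.8% and 98.6% of the Cyp2a5 UMIs and 91.1%, 84.7% and 89.3% of the Aldh3a1 UMIs in the same order of libraries. Aldh1a1 had 75.8%, 76.4% and 74.2% of its UMIs there, and Cyp4b1 57.0%, 72.6% and 81.5%. These 5 genes were thus counted mainly in airway secretory-like cells in every library. The other 5 had most of their UMIs elsewhere or divided them with alveolar, ciliated or stromal cells. Cbr2 had 65.6% of its UMIs in airway secretory-like cells of DJ-1 KO OVA, 49.98% in WT OVA and 46.5% in WT PBS, with most of the rest in alveolar type 2-like cells.

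Set by level, in CPM of each class's UMIs, Cyp2f2 ranked first of 24 classes in airway secretory-like cells (2717, 5102 and 6612 CPM in DJ-1 KO OVA, WT OVA and WT PBS). Ciliated-like cells came next (1383, 1934 and 1263 CPM), followed by alveolar type 2-like cells (60.0, 55.3 and 75.2 CPM). These 3 ranges did not overlap one another. In WT OVA, 1 ciliated-like cell held 447 of the 561 Cyp2f2 UMIs of its class. Lower in the order the ranges of neighbouring classes mostly overlapped, and B cell-like cells, which are not known to make this enzyme, stood at 12.2, 15.3 and 8.58 CPM. The level in other classes can rest on a single barcode: 1 of the mesothelial-like cells of DJ-1 KO OVA held all 127 Cyp2f2 UMIs of that class there and 333 of its 342 Cbr2 UMIs, and 1 neutrophil-like cell of WT OVA held 176 of 192 Cyp2f2 UMIs. Whether such barcodes hold more than 1 cell was not tested.

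Cyp2a5, whose enzyme hydroxylates coumarin and nicotine, had the same first 2 classes: airway secretory-like cells (53.4, 66.0 and 317 CPM in DJ-1 KO OVA, WT OVA and WT PBS) and ciliated-like cells (15.5, 24.1 and 42.1 CPM), with no overlap. The next class, neutrophil-like cells, held 2 Cyp2a5 UMIs in all. Aldh3a1 was likewise led by airway secretory-like cells (101, 120 and 272 CPM), without overlap with alveolar type 2-like cells (6.30, 7.17 and 7.87 CPM). Aldh1a1 stood at 1523, 1412 and 1790 CPM in airway secretory-like cells and at 1104, 958 and 1820 CPM in ciliated-like cells, and these neighbours overlapped. Mesothelial-like cells followed at 591, 343 and 390 CPM, and fibroblast-like cells at 268, 252 and 267 CPM.

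Cyp2b10 encodes a P450 that the nuclear receptor CAR induces in liver. Its highest level was in alveolar type 1-like cells, the thin gas-exchange cells, at 1428 CPM in DJ-1 KO OVA, 1284 CPM in WT OVA and 984 CPM in WT PBS, although this class had only 7, 7 and 6 cells. Ciliated-like cells (69.7, 214 and 474 CPM) and alveolar type 2-like cells (108, 169 and 64.2 CPM) overlapped each other. Airway secretory-like cells lay below them in the order, at 42.0, 50.2 and 40.8 CPM. Alveolar type 2-like cells, being many, held 59.0% of the Cyp2b10 UMIs in DJ-1 KO OVA, 76.1% in WT OVA and 62.0% in WT PBS. Cyp4b1, a P450 that activates furan toxins in lung, overlapped among its 3 leading classes: alveolar type 1-like (233, 557 and 948 CPM), ciliated-like (142, 262 and 547 CPM) and airway secretory-like (62.2, 186 and 349 CPM).

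Cyp2s1, a P450 found mostly outside the liver, was led by ciliated-like cells (299, 555 and 1378 CPM in DJ-1 KO OVA, WT OVA and WT PBS). Mesothelial-like cells came next (97.7, 141 and 161 CPM) and then airway secretory-like cells (9.16, 14.3 and 8.83 CPM), and these ranges did not overlap. Fmo2, the main flavin monooxygenase of the lung in many mammals, was led by fibroblast-like cells (909, 1270 and 1292 CPM) and mesothelial-like cells (1170, 1174 and 1475 CPM), which overlapped. Smooth muscle-like cells had 746, 1049 and 561 CPM of Fmo2, and airway secretory-like cells 144, 206 and 219 CPM. Fibroblast-like cells held 51.5%, 60.3% and 73.4% of the Fmo2 UMIs, so over the whole lung this gene was mainly stromal.

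Cbr2, a carbonyl reductase of lung mitochondria, stood at 4494, 4990 and 5106 CPM in airway secretory-like cells and at 3798, 3926 and 6503 CPM in ciliated-like cells, which overlapped. Alveolar type 2-like cells had 1464, 2167 and 2351 CPM of Cbr2, below both. Aox3, a molybdenum-containing aldehyde oxidase, stood at 172, 159 and 229 CPM in alveolar type 2-like cells and at 108, 158 and 235 CPM in airway secretory-like cells, again overlapping. Alveolar type 2-like cells held 56.0%, 61.0% and 61.4% of the Aox3 UMIs. Ciliated-like and alveolar type 1-like levels throughout rest on 32 and 20 cells in all and are given as descriptions. Some of them rest largely on 1 cell. Among ciliated-like cells of WT OVA, 1 cell held 685 of the 1139 Cbr2 UMIs, and without it the level was 2800 CPM. For Cyp4b1 there, 1 cell held 47 of 76 UMIs.

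**Figure D2:**
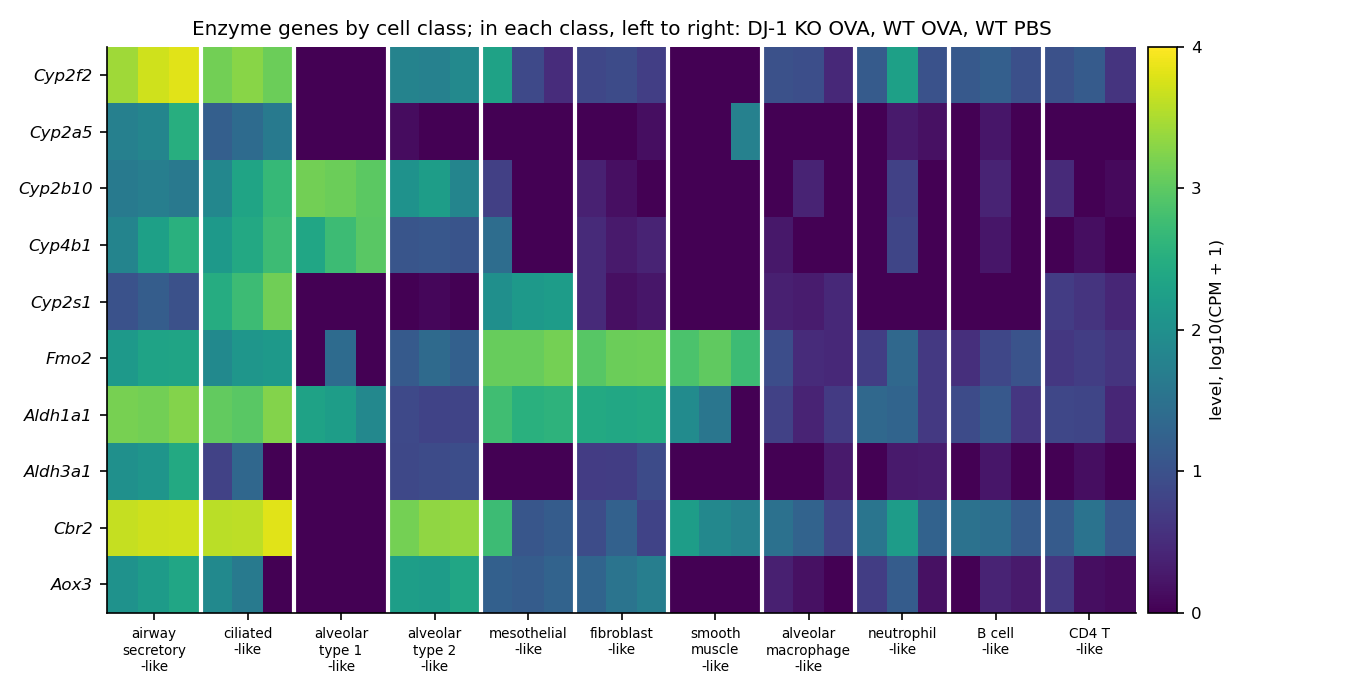
Level of each of the 10 enzyme genes (rows) in 11 cell classes (columns), as log10(CPM + 1) of UMIs summed per class and library. Within a class the columns are DJ-1 KO OVA, WT OVA and WT PBS from left to right; Cyp2f2, Cyp2a5 and Aldh3a1 are brightest in airway secretory-like cells, Cyp2b10 in alveolar type 1-like cells, Cyp2s1 in ciliated-like cells and Fmo2 in mesothelial-like and fibroblast-like cells.

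Within airway secretory-like cells, 9 of the 10 genes had a lower CPM in the DJ-1 KO OVA library relative to WT OVA. Among these 9, the ratios of Cyp2a5, Cyp2b10 and Cyp2s1 had intervals that held 1. Under alternative processing settings, the sign changed in 3 of 18 for Cyp2b10, 2 of 18 for Cyp2s1, and 1 of 18 for Aldh3a1 and for Cbr2. The signs of Cyp2f2, Cyp4b1, Fmo2, Aox3 and Cyp2a5 held in all. This count by sign is given without the share of all genes that were lower. Cyp2f2 stood at 2717 CPM in DJ-1 KO OVA (7118 UMIs), against 5102 CPM in WT OVA (13910 UMIs), a ratio of 0.532 (0.517 to 0.548). Cyp4b1 had 62.2 CPM in DJ-1 KO OVA (163 UMIs), against 186 CPM in WT OVA (506 UMIs), a ratio of 0.335 (0.279 to 0.401). These 2 P450 genes had intervals wholly past 1.5-fold. Cyp2s1 was also past 1.5-fold by its value, at 9.16 CPM in DJ-1 KO OVA against 14.3 CPM in WT OVA, but it had 24 and 39 UMIs and its interval of 0.368 to 1.09 held no difference.

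So 3 of the 10 genes were past 1.5-fold lower in DJ-1 KO OVA and 0 were past 1.5-fold higher, where 8.82% of the 9129 genes with at least 20 UMIs over both libraries were past that fold lower and 18.8% higher. The median log2 ratio was -0.41 over the 10 genes and 0.16 over all genes. Fmo2, at 144 CPM in DJ-1 KO OVA and 206 CPM in WT OVA, had a ratio of 0.697 (0.610 to 0.795), and Aox3, at 108 and 158 CPM, had a ratio of 0.681 (0.584 to 0.793). Both lay just inside 1.5-fold, and past it with median-of-ratios scaling. Cyp2a5 (53.4 CPM in DJ-1 KO OVA, 66.0 CPM in WT OVA) and Cyp2b10 (42.0 and 50.2 CPM) had ratios of 0.809 and 0.835, with intervals that held 1. Aldh3a1 had 101 CPM in DJ-1 KO OVA and 120 CPM in WT OVA, a ratio of 0.846 (0.717 to 0.998).

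Aldh1a1, whose enzyme oxidises retinaldehyde to retinoic acid, was the single gene of the 10 with the higher CPM in DJ-1 KO OVA, 1523 CPM against 1412 CPM in WT OVA, a ratio of 1.08 (1.03 to 1.13), which median-of-ratios scaling turned round. Cbr2 was close to level, at 4494 CPM in DJ-1 KO OVA and 4990 CPM in WT OVA, a ratio of 0.900 (0.878 to 0.923). The 10 genes together took 9253 CPM of the class in DJ-1 KO OVA and 12305 CPM in WT OVA, a ratio of 0.752 (0.740 to 0.765).

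Between WT OVA and WT PBS, other members stood out. Cyp2a5 had 66.0 CPM in WT OVA (180 UMIs), against 317 CPM in WT PBS (574 UMIs), a ratio of 0.208 (0.175 to 0.247). In WT PBS 1 cell held 223 of those 574 UMIs, and without it the level was 204 CPM. No Cyp2a5 UMI was found in 86 of the 111 cells of DJ-1 KO OVA, 88 of the 118 of WT OVA and 30 of the 52 of WT PBS. Aldh3a1, which encodes a dehydrogenase of aromatic and lipid-derived aldehydes, had 120 CPM in WT OVA (326 UMIs), against 272 CPM in WT PBS (493 UMIs), a ratio of 0.440 (0.381 to 0.507). Cyp4b1 had 186 CPM in WT OVA and 349 CPM in WT PBS, a ratio of 0.532 (0.473 to 0.599). These 3 of the 10 genes were past 1.5-fold lower in WT OVA, and their intervals lay wholly past that fold. The Cyp4b1 difference was inside the fold with each cell thinned to 1000 UMIs (log2 ratio -0.08). There, a Cyp4b1 UMI remained in 25 of 118 cells of WT OVA and 11 of 50 of WT PBS. The difference was also inside the fold for club-like clusters alone (-0.29), whose border the 10 genes could help set.

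The background in this comparison was 13.7% lower and 11.4% higher of 8706 genes. The 1 member past 1.5-fold higher was Cyp2s1, at 14.3 CPM in WT OVA (39 UMIs) against 8.83 CPM in WT PBS (16 UMIs), with a ratio of 1.62 whose interval of 0.885 to 3.11 held 1. The median log2 ratio was -0.36 over the 10 genes and -0.02 over all genes. The members' median turned round for club-like clusters alone (0.16), but the members could help set the border of those clusters. Cyp2f2, the naphthalene epoxidase, stood at 5102 CPM in WT OVA and 6612 CPM in WT PBS, a ratio of 0.772 (0.753 to 0.791), inside the fold used for calls. Aox3 was near the border at 158 CPM in WT OVA and 235 CPM in WT PBS, a ratio of 0.673 (0.587 to 0.771).

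The remaining members had smaller ratios in this comparison. Cbr2 stood at 4990 CPM in WT OVA and 5106 CPM in WT PBS (ratio 0.977), Fmo2 at 206 and 219 CPM (ratio 0.943), and Cyp2b10 at 50.2 and 40.8 CPM (ratio 1.23). The last 2 had intervals that held 1, from 0.828 to 1.07 and from 0.921 to 1.66. Aldh1a1 had 1412 CPM in WT OVA and 1790 CPM in WT PBS, a ratio of 0.789 (0.753 to 0.827). WT OVA is in both comparisons, so a high or low value there enters both, with opposite effect, and the comparisons are not independent of each other.

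**Figure D3:**
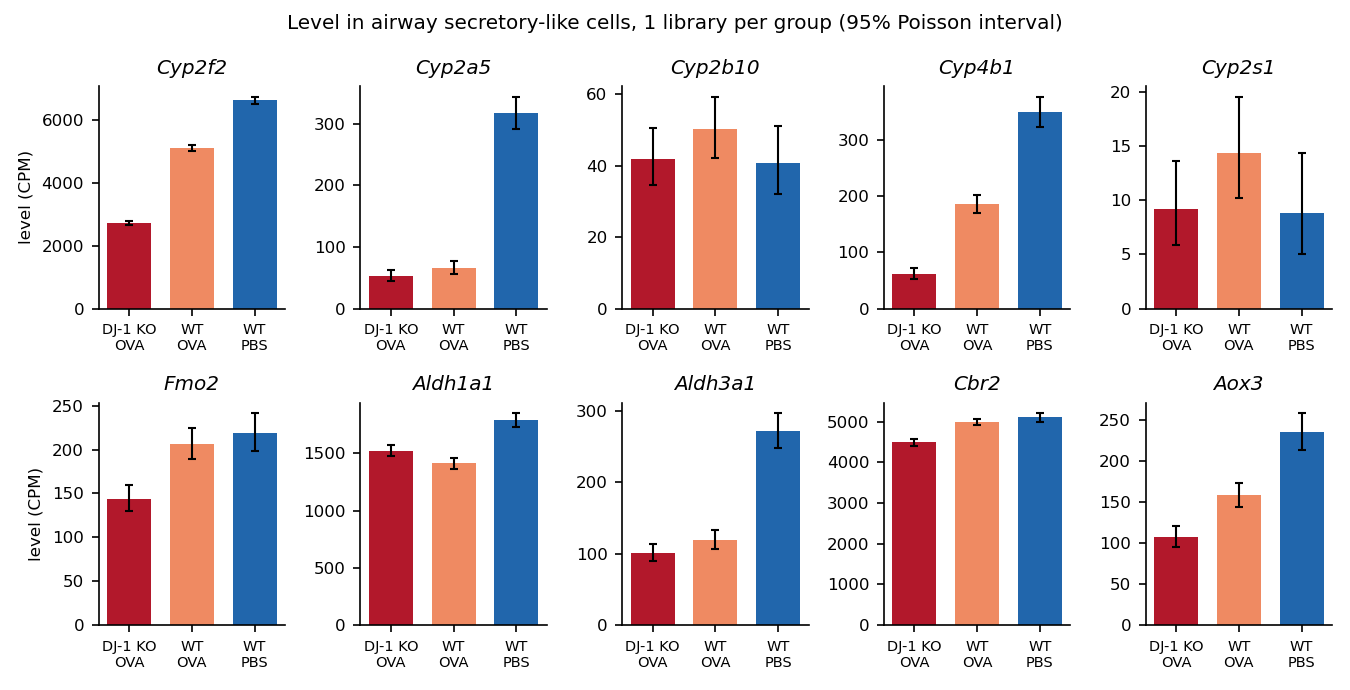
Level of each gene (CPM, axes from 0, a scale of its own in each panel) in airway secretory-like cells of DJ-1 KO OVA, WT OVA and WT PBS, 1 library each, with 95% Poisson intervals. Cyp2f2, Cyp4b1 and Aox3 form steps from low in DJ-1 KO OVA to high in WT PBS, Cyp2a5 and Aldh3a1 are low in both ovalbumin libraries, and Cbr2 spans 4494 to 5106 CPM.

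**Figure D4:**
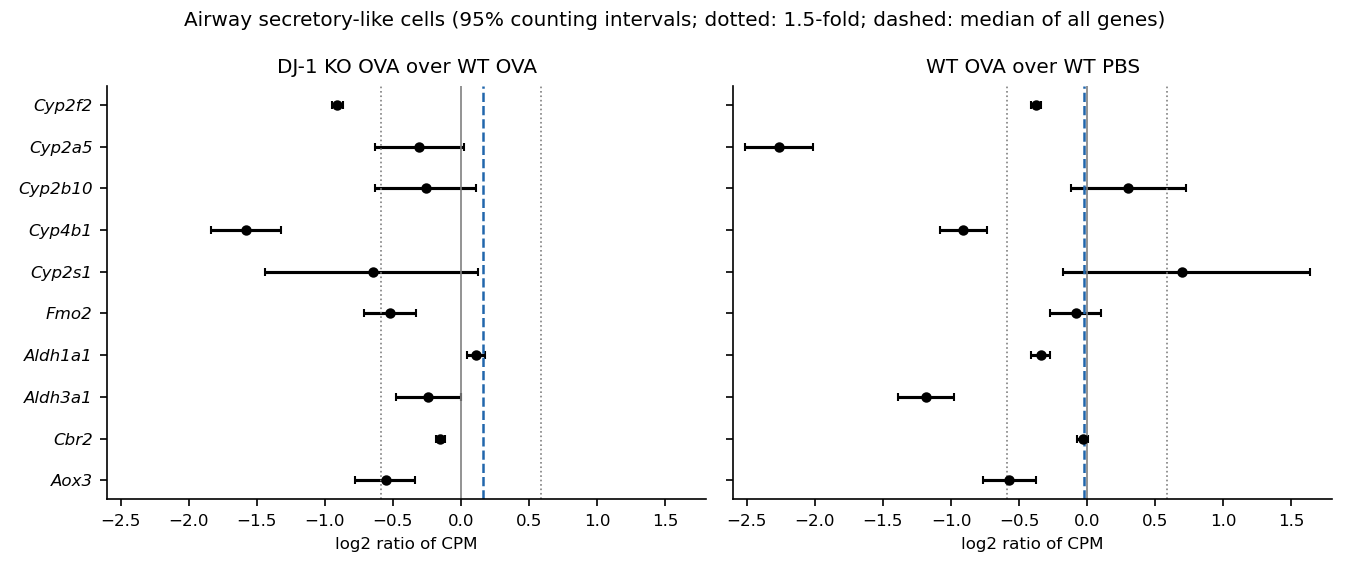
Log2 ratio of CPM (horizontal axes) in airway secretory-like cells, DJ-1 KO OVA over WT OVA on the left and WT OVA over WT PBS on the right; points are single ratios with 95% counting intervals, dotted lines mark 1.5-fold and the dashed line the median of all genes (0.16 and -0.02). Cyp4b1 lies past the dotted line to the left in both panels, Cyp2f2 in the first alone and Cyp2a5 and Aldh3a1 in the second alone.

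These levels were set again without any cell of a shared barcode, which left the class, after clustering anew, with 38 cells in DJ-1 KO OVA, 119 in WT OVA and 21 in WT PBS. Cyp2f2 then stood at 3346 CPM in DJ-1 KO OVA, 5031 CPM in WT OVA and 7954 CPM in WT PBS. Cyp4b1 had 36.8 CPM in DJ-1 KO OVA from 7 UMIs, 182 CPM in WT OVA and 367 CPM in WT PBS. Cyp2a5 had 10.5 CPM in DJ-1 KO OVA from 2 UMIs, 64.7 CPM in WT OVA and 138 CPM in WT PBS. Aldh3a1 had 110, 117 and 178 CPM in the same libraries, and Cbr2 4366, 4936 and 4688 CPM. The order of the 3 libraries was the same as with those cells for Cyp2f2, Cyp4b1, Cyp2a5 and Aldh3a1, while that of WT OVA and WT PBS turned round for Cbr2 and for Cyp2b10 (42.1, 49.2 and 57.4 CPM), and that of DJ-1 KO OVA and WT OVA for Aldh1a1 (1284, 1387 and 1658 CPM). With those cells left out, 5 of the 10 genes in DJ-1 KO OVA relative to WT OVA were past 1.5-fold lower and 0 higher, where 13.1% of 7567 genes were lower and 54.1% higher. In WT OVA relative to WT PBS 5 were also past it lower and 0 higher, but there 45.4% of 7534 genes were lower and 13.9% higher, so that share of the members was near the background.

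Levels were also set cell by cell. The quartiles of Cyp2f2 were 1277, 2046 and 3810 CPM per cell in DJ-1 KO OVA, 2685, 5193 and 7410 CPM in WT OVA, and 4774, 6799 and 9062 CPM in WT PBS. The upper quartile in DJ-1 KO OVA thus lay under the median in WT OVA and under the lower quartile in WT PBS. The highest single cells had 24567, 32055 and 16971 CPM. Aldh1a1 quartiles overlapped widely, at 881, 1320 and 2000 CPM in DJ-1 KO OVA, 931, 1300 and 1802 CPM in WT OVA, and 936, 1651 and 2012 CPM in WT PBS.

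A Cyp2f2 UMI was found in 96.4% of airway secretory-like cells in DJ-1 KO OVA, 99.2% in WT OVA and 92.3% in WT PBS, at median depths of 21264, 23327.5 and 37073 UMIs. In B cell-like cells the share was 1.51%, 2.17% and 2.69%, at median depths of 1105, 1292 and 2980.5 UMIs. With each cell thinned to 1000 UMIs, a Cyp2f2 UMI remained in 77.4% of 106 cells of DJ-1 KO OVA (68.2 to 84.9), 97.5% of 118 cells of WT OVA (92.8 to 99.5) and 94.0% of 50 cells of WT PBS (83.5 to 98.7). The interval of DJ-1 KO OVA lay below that of WT OVA. Thinned B cell-like cells had a share of 1.31%, 1.35% and 1.63%. Aldh1a1 was found in 70.8% of thinned airway secretory-like cells in DJ-1 KO OVA, 69.5% in WT OVA and 62.0% in WT PBS (93.7%, 98.3% and 88.5% unthinned), and Cbr2 in 93.4%, 95.8% and 88.0% (97.3%, 98.3% and 92.3% unthinned), with overlapping intervals.

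Enzyme genes were also counted together per cell. The median airway secretory-like cell had a UMI of 6 of the 10 genes in DJ-1 KO OVA, 7 in WT OVA and 8 in WT PBS. Thinned to 1000 UMIs it had 3, 3 and 4. At least 1 of the 10 was found in 98.1% of thinned cells in DJ-1 KO OVA, 99.2% in WT OVA and 94.0% in WT PBS (98.2%, 99.2% and 94.2% unthinned), against 6.55%, 5.88% and 4.23% of thinned B cell-like cells (6.34%, 8.56% and 9.34% unthinned).

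The class was not uniform. Clustered again with the mucous genes and without the enzyme genes, it split into 4 sub-clusters. Sub-cluster 0 was led by Sftpb, Chia1 and Cxcl15, with the alveolar markers Slc34a2 and Ager also among its 10 leading genes. Relative to the other sub-clusters its alveolar type 2 markers averaged a log2 difference of 1.61 and its 7 club cell markers one of -1.99, while Scgb1a1 itself stood at 381077 CPM there in DJ-1 KO OVA, 505146 in WT OVA and 574056 in WT PBS, above its levels in sub-clusters 1 and 2. Sub-cluster 0 had Clca1 at 143, 10.6 and 0 CPM in DJ-1 KO OVA, WT OVA and WT PBS. Sub-cluster 1 was led by Chil4, Basp1 and Nov, and had Clca1 at 39542, 22824 and 206 CPM. Sub-cluster 2 had haemoglobin genes, Hey1 and Cxcl5 in front, and Clca1 at 31600, 15828 and 1827 CPM. Sub-cluster 3, of 12 cells, was led by Krt5 and Krt17, keratins of basal cells. Since mucous genes helped to make these sub-clusters, their Clca1 values are a description.

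Sub-cluster 0 made up 27.0% of the class in DJ-1 KO OVA (30 cells, 19.0 to 36.3), 47.5% in WT OVA (56 cells, 38.2 to 56.9) and 42.3% in WT PBS (22 cells, 28.7 to 56.8). Sub-cluster 1 made up 45.9% (51 cells) in DJ-1 KO OVA and 29.7% (35 cells) in WT OVA, against 13 of the 52 cells in WT PBS, and sub-cluster 2 made up 20.7%, 20.3% and 28.8%. As a share of all kept cells, sub-cluster 0, of the 3 larger sub-clusters the one lowest in Clca1, came to 0.676%, 0.944% and 0.571%, with intervals that overlapped between all 3 libraries. The makeup of the class thus differed between libraries along with the levels of the enzymes, so levels were also set within sub-clusters. Sub-cluster shares and levels include cells with shared barcodes, 73 of 111 in DJ-1 KO OVA and 31 of 52 in WT PBS. Those cells held most of the class's UMIs in both libraries, and the sub-cluster values were not set again without them.

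Cyp2f2 in sub-cluster 0 stood at 5225 CPM in DJ-1 KO OVA, 6928 CPM in WT OVA and 7095 CPM in WT PBS. There DJ-1 KO OVA over WT OVA gave a ratio of 0.754 (0.727 to 0.782), and WT OVA over WT PBS one of 0.977 (0.943 to 1.01). In sub-cluster 1 it stood at 1739, 3227 and 6020 CPM, and in sub-cluster 2 at 1255, 3450 and 6549 CPM. The ratios of DJ-1 KO OVA over WT OVA were 0.539 (0.508 to 0.572) and 0.364 (0.334 to 0.395) in sub-clusters 1 and 2, and those of WT OVA over WT PBS were 0.536 (0.506 to 0.568) and 0.527 (0.501 to 0.553). In WT PBS, Cyp2f2 spanned 6020 to 7095 CPM over the 3 sub-clusters, whereas in both ovalbumin libraries it was much lower in sub-clusters 1 and 2, where Clca1 was high, than in sub-cluster 0.

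Cyp4b1 had the same shape with a wider range. It stood at 187, 279 and 354 CPM in sub-cluster 0 in the order DJ-1 KO OVA, WT OVA and WT PBS. In sub-cluster 1 it had 5.77, 84.6 and 265 CPM, from 7, 60 and 99 UMIs. In sub-cluster 2 it had 8.69, 111 and 389 CPM, from 5, 75 and 295 UMIs. The ratio of DJ-1 KO OVA over WT OVA was 0.0682 in sub-cluster 1 (0.0263 to 0.149), against 0.672 in sub-cluster 0 (0.552 to 0.816). Whether the ratios differ between sub-clusters beyond the spread between mice was not tested.

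Cyp2a5 and Aldh3a1 lay the other way between sub-clusters. Cyp2a5 in sub-cluster 0 had 3.796, 1.51 and 35.0 CPM in DJ-1 KO OVA, WT OVA and WT PBS, from 3, 2 and 23 UMIs. It had 82.4, 178 and 747 CPM in sub-cluster 1 and 64.3, 76.7 and 359 CPM in sub-cluster 2. Aldh3a1 had 19.0, 43.0 and 86.7 CPM in sub-cluster 0, 166, 220 and 329 CPM in sub-cluster 1 and 74.7, 165 and 413 CPM in sub-cluster 2. Both genes were thus low where Clca1 was low in every library, yet within each of the 3 sub-clusters they stood lower in WT OVA relative to WT PBS. The Cyp2a5 ratio of WT OVA over WT PBS was 0.238 (0.191 to 0.294) in sub-cluster 1 and 0.214 (0.156 to 0.289) in sub-cluster 2. In WT PBS these sub-clusters held 279 and 272 Cyp2a5 UMIs, and 1 cell held 223 of the class's 574. The WT PBS level in whichever of them contains that cell thus rests mostly on it. Sub-cluster ratios without that cell were not computed.

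Cbr2 and Aldh1a1 turned round between sub-clusters. Cbr2 in sub-cluster 0 stood at 7631 CPM in DJ-1 KO OVA, 6679 CPM in WT OVA and 6103 CPM in WT PBS. In sub-cluster 2 it stood at 3130, 3843 and 5076 CPM. Aldh1a1 had 2089, 1435 and 1285 CPM in sub-cluster 0, and 1168, 1311 and 2100 CPM in sub-cluster 2. In sub-cluster 0 both were thus highest in DJ-1 KO OVA, and in sub-cluster 2 both were highest in WT PBS. The basal-type sub-cluster 3 had Cyp2f2 at 3810, 7223 and 4550 CPM from 158, 101 and 108 UMIs in 7, 3 and 2 cells.

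**Figure D5:**
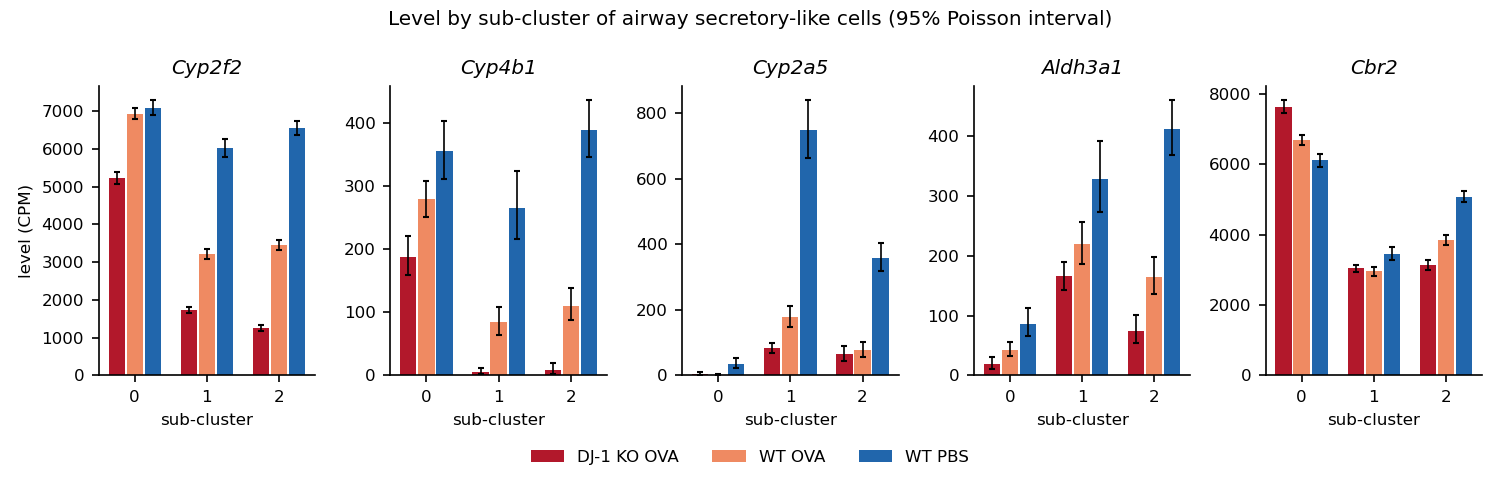
Level (CPM, axes from 0, a scale of its own in each panel) of 5 enzyme genes in sub-clusters 0, 1 and 2 of airway secretory-like cells, with 95% Poisson intervals; in each group of bars DJ-1 KO OVA, WT OVA and WT PBS run from left to right. Cyp2f2 in WT PBS lies between 6020 and 7095 CPM in all 3 sub-clusters, while in DJ-1 KO OVA it is 5225 CPM in sub-cluster 0 and 1739 and 1255 CPM in sub-clusters 1 and 2.

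Club cell and mucous markers were counted beside these levels, against the backgrounds of the class (8.82% lower and 18.8% higher in DJ-1 KO OVA over WT OVA, 13.7% lower and 11.4% higher in WT OVA over WT PBS). Of 7 club cell markers, 2 in DJ-1 KO OVA were past 1.5-fold lower relative to WT OVA and 3 in WT OVA relative to WT PBS, and 0 were higher in either. Of 9 mucous markers, 6 in DJ-1 KO OVA were past that fold higher relative to WT OVA and 9 in WT OVA relative to WT PBS, and 0 lower. Clca1, a secreted mucus regulator, took 25290 CPM of the class in DJ-1 KO OVA, 9881 CPM in WT OVA and 807 CPM in WT PBS. Muc5ac, the gel-forming mucin of allergic airways, had 717, 248 and 17.7 CPM. Leukocyte Ptprc stood at 14.1, 27.5 and 19.9 CPM in the class, against 885, 764 and 867 CPM over all kept cells. A lower share of UMIs for an enzyme and a higher share for mucous genes cannot be told apart by CPM alone. Scaling by median-of-ratios size factors shifted every log2 ratio of DJ-1 KO OVA over WT OVA by -0.14 and of WT OVA over WT PBS by 0.05, which put the median of all genes at 0.02 and 0.03 and that of the 10 genes at -0.55 and -0.31. Under that scaling 2 small differences changed sign, Aldh1a1 in DJ-1 KO OVA over WT OVA (log2 ratio -0.029) and Cbr2 in WT OVA over WT PBS (0.014). It also took Fmo2 (-0.66) and Aox3 (-0.69) past 1.5-fold lower in DJ-1 KO OVA over WT OVA, so the count of genes past the fold depends on scaling.

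Among alveolar type 2-like cells, 8 of the 10 genes had enough UMIs. Cyp2b10 was the gene past 1.5-fold in both comparisons. It stood at 108 CPM in DJ-1 KO OVA (291 UMIs), against 169 CPM in WT OVA (921 UMIs), a ratio of 0.637 (0.556 to 0.728). WT PBS had 64.2 CPM (261 UMIs), so the ratio of WT OVA over WT PBS was 2.64 (2.30 to 3.04). In DJ-1 KO OVA 2 of the 8 genes, Cyp2b10 and Fmo2, were past 1.5-fold lower than in WT OVA and 0 higher, where the background was 8.6% lower and 17.8% higher. In WT OVA over WT PBS, 1 of the 8 was higher and 0 lower, with a background of 8.32% higher and 6.93% lower. Cbr2 in these cells had 1464 CPM in DJ-1 KO OVA and 2167 CPM in WT OVA, a ratio of 0.676 (0.651 to 0.700).

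In fibroblast-like cells Fmo2 was the member with the most UMIs. It stood at 909 CPM in DJ-1 KO OVA, 1270 CPM in WT OVA and 1292 CPM in WT PBS, with ratios of 0.716 (0.670 to 0.765) and 0.983 (0.934 to 1.03). Aldh1a1 there had 268, 252 and 267 CPM, with both ratios' intervals holding 1. Of the 5 members with enough UMIs there, 2 were past 1.5-fold lower in DJ-1 KO OVA relative to WT OVA (Cbr2, 11 against 35 UMIs, and Aox3, 27 against 70) and 0 higher, where the background was 8.09% lower and 13.3% higher. Of 6 in WT OVA over WT PBS, 2 were higher (Cbr2 and Cyp2f2) and 2 lower (Aox3 and Aldh3a1), from at most 133 UMIs in a library, where the background was 7.46% higher and 10.0% lower. In WT OVA, Cyp2f2 stood at 7.08 CPM in fibroblast-like cells, below the 15.3 CPM of B cell-like cells. Without the top cell of each class, Cbr2 there stood at 15.6 and 24.5 CPM. The calls on these 2 genes thus lie below the B cell-like level. In mesothelial-like cells Aldh1a1 had 591 CPM in DJ-1 KO OVA (369 UMIs), against 343 CPM in WT OVA (255 UMIs), a ratio of 1.72 (1.47 to 2.03). Of those 369 UMIs, 1 cell held 70, and without it the level was 522 CPM. Of 6 members with enough UMIs there, 3 were past 1.5-fold higher and 0 lower, where 814 of 7453 genes were higher and 1162 lower. Cyp2f2 and Cbr2 in that class of DJ-1 KO OVA rest almost wholly on 1 cell.

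Over all kept cells, shares of cells and levels per cell are joined, and fewer cells of a class and less RNA per cell cannot be told apart. The 10 genes together took 2119 CPM in DJ-1 KO OVA, 2444 CPM in WT OVA and 1864 CPM in WT PBS. Of the 10, 0 were past 1.5-fold higher and 2 lower (Cyp2b10 and Cyp4b1) in DJ-1 KO OVA relative to WT OVA, where the background was 12.3% higher and 9.1% lower. In WT OVA over WT PBS, Cyp2b10 was past that fold higher (52.8 against 17.3 CPM) and Cyp2a5 lower (8.37 against 23.9 CPM), with a background of 10.3% higher and 7.76% lower. Cyp2f2 stood at 474 CPM in DJ-1 KO OVA, 658 CPM in WT OVA and 513 CPM in WT PBS. With both cells of shared barcodes left out, the 10 genes took 730, 2444 and 931 CPM. That step took cells from DJ-1 KO OVA and WT PBS only, among them most of their airway secretory-like cells. The larger lead of WT OVA there thus follows from the step and is no separate result.

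Genes that act beside these enzymes were taken from 4 lists and read in airway secretory-like cells, against the same backgrounds of that class. Of 6 redox partner and haem genes, 2 were past 1.5-fold lower in DJ-1 KO OVA relative to WT OVA, Cyb5a (276 against 456 CPM) and Hmox1 (36.3 against 60.2 CPM), and 0 higher. Por, the electron donor of the P450s, stood at 690 CPM in DJ-1 KO OVA, 639 CPM in WT OVA and 609 CPM in WT PBS. Between WT OVA and WT PBS only Cyb5r3 of the 6 was past that fold, at 58.7 against 89.9 CPM. Of 9 regulators of these genes, 5 had enough UMIs, and 1 was past the fold in each comparison. It was Ahr, the aryl hydrocarbon receptor, with 32.1 CPM in DJ-1 KO OVA, 63.8 CPM in WT OVA and 40.3 CPM in WT PBS.

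Conjugating enzymes attach glutathione, sulphate or glucuronide to the products of the first step. Of 17 with enough UMIs among 24 listed, 9 were past 1.5-fold lower and 0 higher in DJ-1 KO OVA relative to WT OVA (median log2 ratio -0.59), and 6 were lower and 2 higher in WT OVA relative to WT PBS (median -0.39). The sulphotransferase Sult1d1 had 45.4 CPM in DJ-1 KO OVA, 133 CPM in WT OVA and 310 CPM in WT PBS. The glutathione transferase Gsta3 had 256 CPM in WT OVA and 437 CPM in WT PBS. The 2 higher in WT OVA were the microsomal glutathione transferases Mgst2 (93.9 CPM, against 58.5 CPM in WT PBS) and Mgst3 (46.9 against 30.9 CPM). Of 25 other first-step enzymes with enough UMIs among 46 listed, 6 were lower and 1 higher in DJ-1 KO OVA relative to WT OVA (median 0.08), and 8 lower and 2 higher in WT OVA relative to WT PBS (median -0.27). Among them, the carboxylesterase Ces1d had 479 CPM in WT OVA and 864 CPM in WT PBS, a ratio of 0.554 (0.514 to 0.597). The higher ones had few UMIs. Nqo2, a quinone reductase, had 17 UMIs in DJ-1 KO OVA, against 10 in WT OVA (ratio 1.77, 0.765 to 4.32). Between WT OVA and WT PBS, Cyp1b1 had 23 and 7 UMIs (ratio 2.18, 0.907 to 6.03) and Cyp4f16 had 21 and 3 UMIs (ratio 4.65, 1.39 to 24.4).

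Of the 10 genes, 4 lie within 1331192 bases of chromosome 7 in the mm10 build. By the RefSeq table of GRCm38.p6 they are Cyp2s1 (chr7:25802469-25816525), Cyp2b10 (chr7:25897658-25926624), Cyp2a5 (chr7:26835339-26843264) and Cyp2f2 (chr7:27119955-27133660), all protein coding. That stretch holds 16 Cyp2 genes, 12 of them protein coding and all 12 in the matrices. The 8 that are not members had no UMI in airway secretory-like cells of any library. One of them, Cyp2a4, is nearly identical to Cyp2a5, so the counting could have split or dropped reads that fit both, and its 0 UMIs allow up to 1.14 CPM in DJ-1 KO OVA, 1.10 CPM in WT OVA and 1.66 CPM in WT PBS (3 UMIs per library). Aldh1a7, a close relative of Aldh1a1 on which the same caution rests, had 357, 290 and 198 CPM in the class. The 4 members in this stretch did not all share a pattern. Cyp2f2 and Cyp2a5 were both led by airway secretory-like cells, Cyp2b10 by alveolar type 1-like cells and Cyp2s1 by ciliated-like cells.

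The genes most like each member were taken by Pearson's r of log2(CPM + 10) over 50 sums of 19 classes and 3 libraries, with no test, since sums of a class share its cell type and sums of a library its depth. Cyp2f2 was most like Scnn1g (r = 0.949) and Scgb1a1 (0.945). Cyp2a5 was most like Sult1d1 (0.989), Ccdc129 (0.988) and Cyp4a12b (0.985), and Aldh3a1 most like Wdr72 (0.970), Lgr6 (0.968) and Cyp4a12b (0.967). Cyp4a12b thus stood among the nearest genes of 2 members that were low in both ovalbumin libraries. Cyp2b10 was most like Gramd2 (0.971) and Elf5 (0.970), Cyp4b1 like Six4 (0.934) and Slc16a11 (0.933), and Cyp2s1 like Muc16 (0.970) and Msln (0.968). Fmo2 was most like Id4 (0.964) and Gstm2 (0.954), Aldh1a1 like Wfdc1 (0.933) and the alcohol dehydrogenase Adh7 (0.924), Cbr2 like 5330417C22Rik (0.902) and Wfdc2 (0.900), and Aox3 like Tom1l1 (0.9412) and Mecom (0.9404).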

How the data were processed

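The 3 libraries of whole-lung cells were made with 10x Chromium 3′ v3 reagents, per the labels' protocols. The authors deposited raw UMI counts for each gene in each barcode, written by software version 3.1.0 per the file headers. Cell Ranger, STAR and the mm10 build are named in the submitters' processing notes. No barcode holds fewer than 500 UMIs, so cells had been called before deposit. The members and gene lists were chosen with earlier results of these data known.

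Kept cells had 200 genes or more and no more than 20% mitochondrial UMIs, without the smaller cell of each barcode shared by DJ-1 KO OVA and WT PBS. Scrublet in scanpy 1.11.5 (expected rate 0.06) removed 3, 162 and 58 doublets of DJ-1 KO OVA, WT OVA and WT PBS. It marked only 0.0676% of cells in DJ-1 KO OVA, so doublets there were in effect not removed. Counts scaled to 10000 and log-transformed were clustered with leidenalg 0.10.2, scikit-learn 1.9.0 and igraph 0.11.9 at resolution 1, from 2000 variable genes, 15 neighbours and 30 principal components. Names came from 36 marker lists, and needed a mean log2 score of 1 or more and 3 or more markers in 10% of cells. UMIs were summed per class and library and given as CPM, with exact Poisson, binomial and Clopper-Pearson 95% intervals. A call is a ratio past 1.5-fold with at least 20 UMIs over both libraries, in classes of at least 30 cells in each. This minimum of cells was not applied where cells of shared barcodes were left out, nor to ratios within sub-clusters. With 1 library per group no p-value was computed.

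Named genes are the members, Cyp2a4, Aldh1a7, Park7, markers, the most extreme 4 each way of each list past the fold, and the 3 genes most like each member; Por, an electron donor, was named after its values were seen. Some genes that this rule names are not reported here. The ratio step was tested on simulated counts. Alternatives covered shared barcodes, filters, doublets, clustering, scaling, weighting and depth; a doublet score limit of 0.25 and sub-clusters were added after seeing the data. Other software was matplotlib 3.10.9, pandas 2.3.3, SciPy 1.17.1 and NumPy 2.4.6 on Python 3.11.15.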

Additional observations from a re-analysis of the deposited data

Results flagged for a closer look

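Signal from the 10 enzyme genes was present in cells that the comparisons left out, the cells with fewer UMIs of each barcode shared by DJ-1 KO OVA and WT PBS. The 66 such cells of DJ-1 KO OVA had 8489 CPM of the 10 genes together (7768 to 9259), above the 2119 CPM of the kept cells of that library, while their partners of the same barcode in WT PBS had 9498 CPM. The 306 such cells of WT PBS had 3641 CPM (3447 to 3843), above the 1864 CPM of the kept cells, while their partners in DJ-1 KO OVA had 4328 CPM. In both directions the left-out cells were nearer to their partners in the other library than to the kept cells of their own. Their median UMI count was 2.15% of their partners' for the left-out DJ-1 KO OVA cells and 4.91% for those of WT PBS. The source of these UMIs was not tested.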

How the results depend on the processing

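No paired analysis was possible because each group is 1 library. Values here are log2 ratios. The airway secretory-like share of WT OVA over WT PBS (0.56) reversed with all cells kept (-0.66) and among epithelial cells (-0.12), and was 1.86 with both cells of shared barcodes left out. With DJ-1 KO OVA over WT OVA (0.33) it reversed with both left out (-1.13) and for club-like clusters alone (-0.19), and was 1.00 among epithelial cells. Club-like clusters, here and below, came from a clustering in which the enzyme and mucous genes could take part. Leaving out both cells of shared barcodes removed cells of DJ-1 KO OVA and WT PBS only, which favours WT OVA. The summed level over all kept cells kept its direction in both comparisons. For WT OVA over WT PBS (0.39) it was 0.37 with all cells kept, 1.39 with both left out, 0.36 with size factors and 0.42 when thinned. With DJ-1 KO OVA over WT OVA (-0.21) it was -1.74 with both left out, -0.18 at 10% mitochondrial UMIs, -0.17 with doublets kept, -0.29 with size factors, -0.50 with cells weighted alike, -0.29 when thinned and -0.19 at a doublet score limit of 0.25. The median over the genes in airway secretory-like cells, WT OVA over WT PBS (-0.36), was -0.29 with all cells kept, -0.46 with both left out, -0.44 with libraries clustered alone, -0.24 with cells weighted alike and -0.47 when thinned, and reversed for club-like clusters alone (0.16). With DJ-1 KO OVA over WT OVA (-0.41) it was -0.042 when thinned. Thinning left several members few UMIs: Cyp2s1 in 2 of 106 cells of DJ-1 KO OVA and 1 of 118 of WT OVA, Cyp2a5 in 2 and 6. Of the well-counted genes, Cyp2f2 then had a mean of 3.16 UMIs per cell in DJ-1 KO OVA against 5.62 in WT OVA. Cbr2 had 4.82 against 5.06, and Aldh1a1 went the other way, 1.61 against 1.29.

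Past 1.5-fold in the same direction were Cyp2a5 and Aldh3a1 for WT OVA over WT PBS under 18 of 18 alternatives and Cyp4b1 under 16, and with DJ-1 KO OVA over WT OVA Cyp4b1 under 18 and Cyp2f2 under 17. Cyp2s1, a gene of few UMIs, reversed for WT OVA over WT PBS at resolution 0.5 (-0.22) and with libraries clustered alone (-2.46), and with DJ-1 KO OVA over WT OVA with libraries clustered alone (1.73) and when thinned (1.15). The causes of these moves were not tested.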
